A study of Mus musculus with 13 samples.

Results

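Liver tumours of mice that lack the microRNA gene mir-122 were compared with livers of control mice at 11 months of age. Samples were chosen by their labels: 5 of the 13 arrays carry that age, 3 labelled as tumours of knockout mice (KO_tumor_11M, replicates 1 to 3) and 2 as livers of control mice (control_liver_11M, replicates 1 and 2). The tumour mice have the genotype mir-122 knockout and the controls are wild type, both on a B6/129 background. The titles of the 3 tumours carry different numbers, but the labels do not say whether these tumours came from separate mice. No non-tumour liver of a knockout mouse was analysed here, so loss of the microRNA and tumour growth cannot be told apart. The other 8 arrays, 5 tumours and 3 control livers at 14 months, served here to estimate the spread between arrays and for a side-by-side reading. Each array measured 1 RNA sample from frozen liver on a GeneChip, and levels are log2 values from robust multi-array analysis (RMA), in which a difference of 1 is a 2-fold difference.

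miR-122 is the most abundant microRNA of the hepatocyte, where it binds the messenger RNAs of its targets and lowers their level and translation. Mice without it are known for fatty liver, inflammation and fibrosis, and older animals develop liver tumours. Liver tumours of mice often switch on genes of the fetal liver, such as the growth factor gene Igf2 and the serum protein gene Afp, and lose enzymes of the adult hepatocyte. Because the liver is the main site of drug, lipid and bile acid metabolism, such losses can be followed enzyme by enzyme.

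The control group limits every value below. With 3 tumours and 2 controls an exact permutation test of a single gene cannot give a two-sided p below 0.2, so the test used was limma's moderated test, fitted on all 13 arrays with the 2 ages as separate groups and adjusted by Benjamini-Hochberg over 18193 genes, each represented by 1 probe set. Array medians at 11 months ran from 5.145 to 5.185, a closeness that RMA's quantile normalisation gives by construction. Control replicate 1 was nearly identical to a control of 14 months (control_liver_14M replicate 3, r = 0.995 over probe sets, 58 probe sets over 2-fold apart), whereas the other 9 pairs of controls had 485 to 1310 such probe sets, and results were therefore also computed without both. On the first principal component, which held 49.5% of the variance over all arrays, the controls lay between -79.3 and -64.5, tumour replicates 1 and 2 at -2.67 and -17.8, and tumour replicate 3 at 92.1. On the second (12.8%) tumour replicate 1 stood apart from the other 11-month arrays, at -72.3 against -25.1 to 18.1. A tumour of 14 months, KO_tumor_14M replicate 4, lay close to it on both components, at 1.54 and -72.2. The p-values measure only the spread between these samples, which may in part be technical. The deletion of mir-122 itself was not checked here.

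At 11 months 349 genes passed an adjusted p of 0.05, 1.92% of all tested, 238 higher (1.31%) and 111 lower (0.61%) in tumours. Of these, 195 were higher and 72 lower by at least 2-fold, and in 105 of the rises and 35 of the falls each of the 3 tumours lay at least 2-fold from the nearer control. In all 349 the 3 tumours lay on the same side of both controls, an arrangement that held for 6113 of all genes (13.9% with the tumours above and 19.7% with the tumours below). The median log2 difference over all genes was -0.04. Here and below, a fit without 1 of the 2 controls holds a single control, so standard errors tend to widen. Calls can then be lost even where the difference stays the same. The count turned on the controls: it was 47 without control replicate 1 (26 higher and 21 lower, 44 of them shared with the 349) and 21 without control replicate 2 (12 and 9, 18 shared). It was 539 without tumour replicate 1, 731 without tumour replicate 2, 88 without tumour replicate 3, and 35 without both nearly identical controls. Of 58 called genes that the naming rule picked, 11 still passed without control replicate 1, 5 without control replicate 2 and 22 without tumour replicate 3. Fitted on the 5 arrays alone, limma called 0 genes (smallest adjusted p = 0.0738), with 2070 genes at an unadjusted p under 0.05 against 2998 (16.5%) with all arrays.

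**Figure D1:**
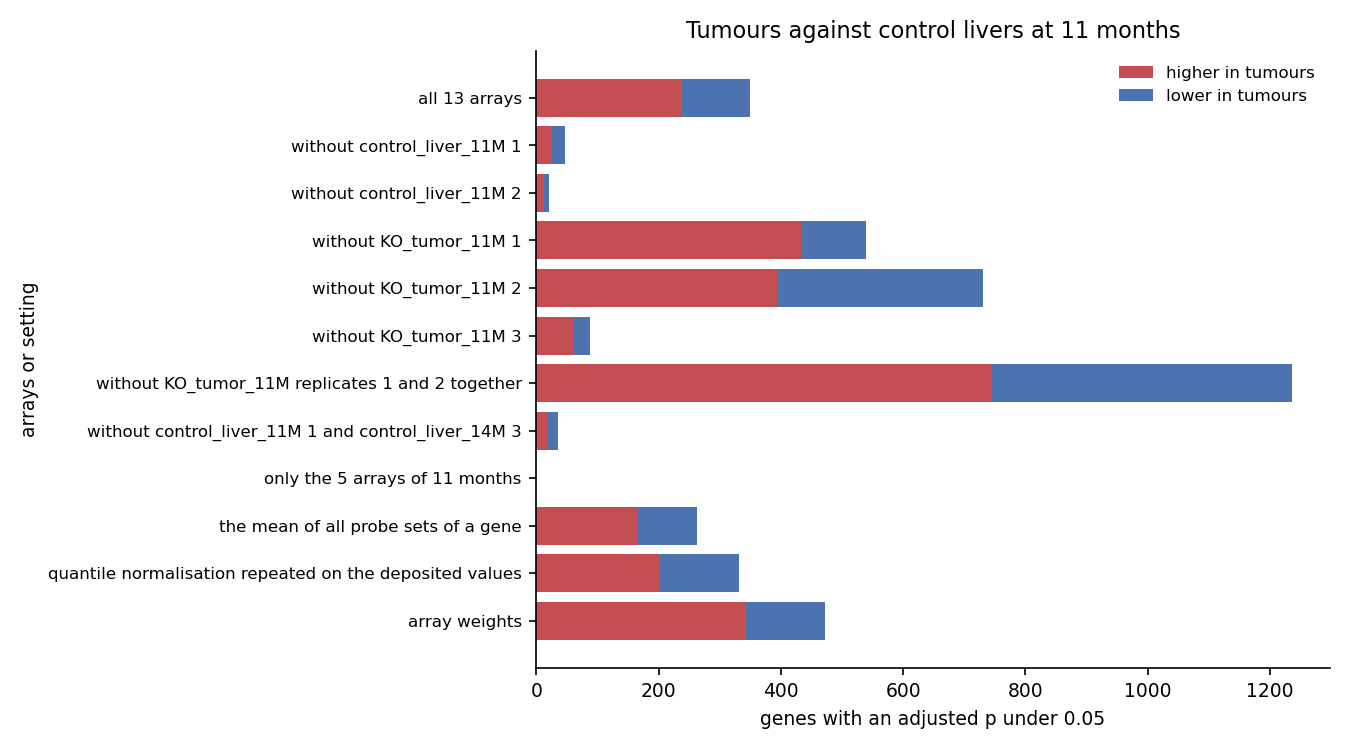
Number of genes past an adjusted p of 0.05 (limma, x axis, stacked as higher and lower in tumours) for the 11-month comparison under each set of arrays or processing setting (y axis). The bar for all 13 arrays holds 238 rises and 111 falls, the bars without control replicate 1 or 2 hold 47 and 21 genes, and the bar for the 5 arrays alone is empty.

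A group of 18 genes (0.0989% of all tested) passed with all arrays and again when each of the 5 arrays of 11 months was left out in turn, 12 higher and 6 lower. Of these, Igf2, Hsd3b5, Slco1a1, Trhde and Tex12 belong to the genes named by rule, and the other 13 are named because they are in this group, after their values were seen. Igf2, which encodes a fetal growth factor silenced in the adult liver, had the largest rise of all called genes. Its level was 6.37 and 5.09 in the controls and 11.63, 12.79 and 12.70 in the tumours. Every tumour thus lay far above both controls, and the difference was 6.64 ± 0.51 on the log2 scale (SE; adjusted p = 0.000217, limma), or 4.67 with the mean of its 2 probe sets.

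Among the other 11 rises in that group was Cybb, the catalytic subunit of the phagocyte NADPH oxidase, at 7.0 and 7.12 in controls and at 9.68, 10.74 and 10.13 in tumours (3.12 ± 0.29, adjusted p = 0.000594). Casp4, a caspase that senses bacterial lipopolysaccharide inside cells, was at 5.59 and 5.58 against 8.53, 8.86 and 7.95 (2.86 ± 0.29, adjusted p = 0.00103). The controls were almost level for both, and the tumours did not overlap them. Cda, cytidine deaminase of pyrimidine salvage, was at 7.09 in both controls and at 10.01, 9.70 and 9.82 in tumours (2.75 ± 0.25, adjusted p = 0.000594), so the tumours were close together. Gas6, the ligand of the TAM receptor kinases that help clear dying cells, was at 7.73 and 7.28 against 9.98, 9.55 and 9.65 (2.22 ± 0.24, adjusted p = 0.00169). Myadm, a membrane protein of myeloid and other cells, rose by 2.21 on the log2 scale, the uncharacterised gene AI467606 by 2.22 and the tripartite-motif gene Trim47 by 2.05. Smaller but equally even rises were found for Necap2, which acts in endocytosis (1.53 ± 0.14, adjusted p = 0.000594), Fundc1, a mitophagy receptor of the outer mitochondrial membrane (1.40 ± 0.16), Arfip2, a partner of small Arf and Rac GTPases (1.01 ± 0.11), and Rtn3, a reticulon of the endoplasmic reticulum (0.95 ± 0.11). Arfip2 was at 7.27 in both controls and at 8.13, 8.35 and 8.35 in tumours, so a difference near 2-fold was resolved where replicates were this close. With the mean of probe sets Fundc1 was at 0.71 and did not pass (limma adjusted p = 0.0507). Gas6 (0.98), Rtn3 (0.63, adjusted p = 0.0494), AI467606 (1.57), Necap2 (1.22) and Arfip2 (0.84) passed with smaller differences, and Cybb (2.93) and Myadm (2.11) changed little.

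**Figure D2:**
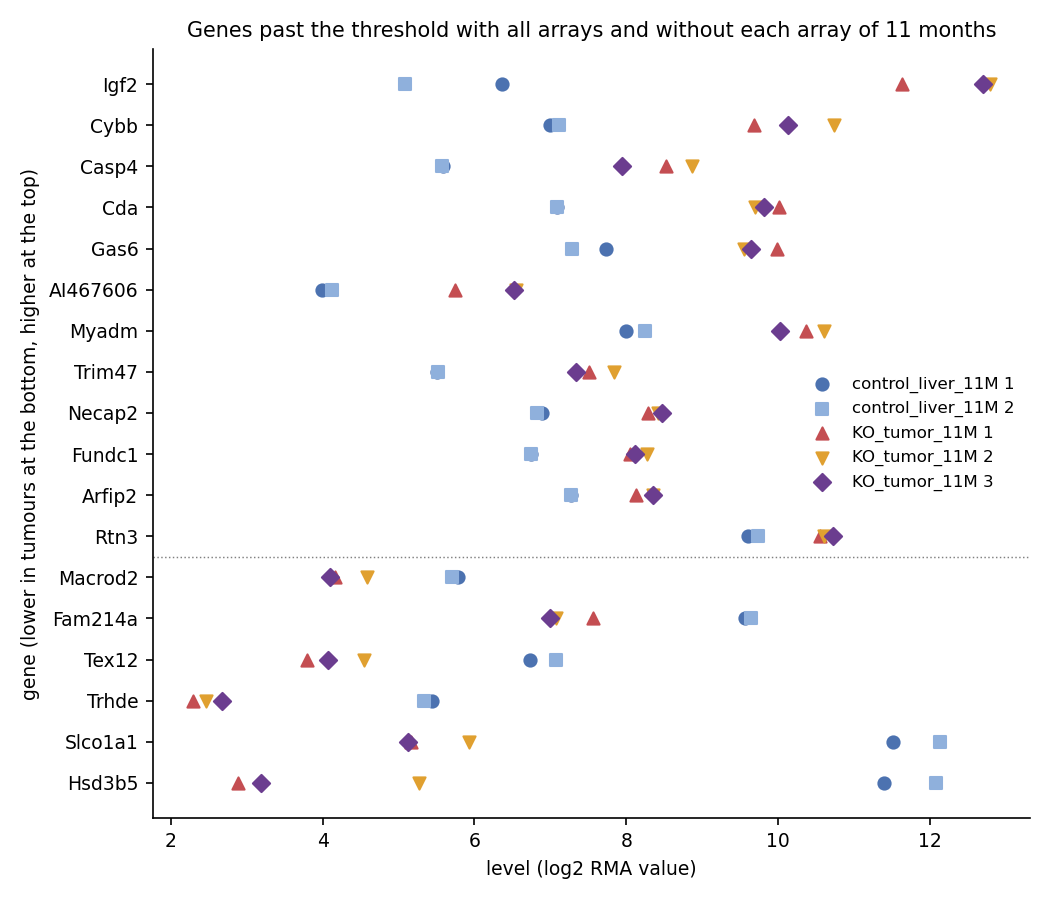
Level (log2 RMA value, x axis) of the 18 genes past the threshold with all arrays and without each array of 11 months (y axis), with 1 point per array; where points coincide, as for the controls of Cda and Arfip2, only the upper symbol is seen. Rises stand above the dotted line and falls below it. The 3 tumours of Igf2 sit between 11.63 and 12.79 and those of Hsd3b5 between 2.89 and 5.27, far from both controls in each gene.

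The 6 falls of that group were led by Hsd3b5 and Slco1a1, which are expressed at higher levels in livers of male mice. Hsd3b5, a 3-ketosteroid reductase of the liver, was at 11.40 and 12.08 in controls and at 2.89, 5.27 and 3.19 in tumours, a difference of -7.95 ± 0.73 (248-fold lower, adjusted p = 0.000594). Slco1a1, a carrier that takes up organic anions and steroid conjugates, was at 11.51 and 12.13 against 5.16, 5.93 and 5.13 (-6.41 ± 0.45, 85.2-fold lower, adjusted p = 0.000121). In both genes no tumour came near the controls, and tumour replicate 2 kept the highest tumour level. Trhde, an ectopeptidase that degrades thyrotropin-releasing hormone, was at 5.44 and 5.34 in controls and at 2.29, 2.47 and 2.67 in tumours (-2.91 ± 0.20, adjusted p = 0.000121). Tex12, known as a component of the synaptonemal complex in meiosis, was at 6.73 and 7.07 against 3.79, 4.54 and 4.07 (-2.77 ± 0.22, adjusted p = 0.000245). Fam214a fell by 2.39 on the log2 scale (adjusted p = 0.000573) and Macrod2, which removes ADP-ribose from proteins, fell by 1.46 (adjusted p = 0.00275). With the mean of probe sets Macrod2 was at -0.69 (limma adjusted p = 0.0142), whereas Fam214a (-2.34) and Slco1a1 (-6.63) changed little. The lowest values on the 11-month arrays ran from 1.951 to 2.12. Tumour levels of Trhde, and of Hsd3b5 in replicates 1 and 3, lay near this floor, so the size of these falls is uncertain. Probe sets of the Hsd3b and Slco1a families may also bind transcripts of close relatives.

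To give the sequence context of the genes with the largest falls and of the oxidase gene, promoters of these genes, each with a single start in the table used, are shown from RefSeq, build GRCm38.p6, from 250 bases before to 50 bases after the start, read 5′ to 3′ on the gene's strand. Capitals mark matches, on either strand, to the letters TATAAA (the TATA box), TGANTCA (the AP-1 site), CACGTG (the E-box) and GTTAAT (an HNF1 core), which overlap no other capitals shown.
Hsd3b5, chr3:98645485-98645784, minus strand: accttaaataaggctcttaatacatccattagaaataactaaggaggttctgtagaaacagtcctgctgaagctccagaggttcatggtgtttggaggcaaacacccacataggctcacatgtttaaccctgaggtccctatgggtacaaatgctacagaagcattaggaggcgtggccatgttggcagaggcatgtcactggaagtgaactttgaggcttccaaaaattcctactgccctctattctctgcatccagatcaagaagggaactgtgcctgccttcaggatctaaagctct
Slco1a1, chr6:141946913-141947212, minus strand: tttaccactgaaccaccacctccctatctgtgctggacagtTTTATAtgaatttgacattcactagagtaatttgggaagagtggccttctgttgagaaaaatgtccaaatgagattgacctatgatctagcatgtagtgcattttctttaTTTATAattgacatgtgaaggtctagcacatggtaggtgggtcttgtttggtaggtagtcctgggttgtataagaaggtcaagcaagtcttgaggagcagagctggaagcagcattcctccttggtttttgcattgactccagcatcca
Cybb, chrX:9469275-9469574, minus strand: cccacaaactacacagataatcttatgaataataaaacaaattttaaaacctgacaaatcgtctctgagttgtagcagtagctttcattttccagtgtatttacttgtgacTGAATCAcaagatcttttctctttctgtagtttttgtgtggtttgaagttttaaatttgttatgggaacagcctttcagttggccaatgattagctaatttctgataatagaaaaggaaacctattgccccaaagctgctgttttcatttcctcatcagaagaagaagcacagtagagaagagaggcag
Hsd3b5 had no match to any of these letters in this window, Slco1a1 had TATAAA on the opposite strand in 2 places, and Cybb had TGANTCA in 1 place. The promoter of Cda, another rise of the group with a single start, was scanned in the same way. It had no match and is not shown. Of the 14452 tested genes with such a promoter, 191 were called rises and 95 called falls. TATAAA was present in 11.5% of all these promoters, 11.5% of the rises and 7.37% of the falls. The shares were 7.54%, 7.33% and 7.37% for TGANTCA, 10.2%, 6.28% and 12.6% for CACGTG, and 6.27%, 4.71% and 6.32% for GTTAAT. A match is a description of the letters and does not show that a factor binds there.

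Genes of the fetal liver and of liver tumours formed the list with the most rises after the microRNA targets: of 31 measured, 9 rose, 0 fell and 22 did not pass, against 1.31% higher over all genes. Afp, the fetal counterpart of albumin, was at 6.11 and 4.73 in controls and at 10.44, 8.22 and 12.18 in tumours (4.86 ± 0.85, 29.1-fold, adjusted p = 0.022). Lcn2, lipocalin 2, which binds bacterial siderophores and is induced in injured liver, was at 9.73 and 5.88 against 13.53, 12.97 and 13.75 (5.61 ± 1.10, adjusted p = 0.0321). The controls of Lcn2 were far apart, and the tumours were nearly level. Tspan8, a tetraspanin of epithelial tumours, was at 4.73 and 3.24 against 9.73, 7.95 and 8.76 (4.83 ± 1.04, adjusted p = 0.0441), and Prom1, a marker of progenitor and bile duct cells, at 5.43 and 3.79 against 9.05, 6.89 and 10.21 (4.11 ± 0.92, adjusted p = 0.0488). Sox4, a transcription factor of progenitor cells, was at 5.55 and 5.70 against 9.83, 7.75 and 11.34 (4.02 ± 0.86, adjusted p = 0.0431). In Afp, Prom1, Sox4 and the stearoyl-CoA desaturase Scd2 (6.12 and 6.16 against 9.78, 8.15 and 12.18, adjusted p = 0.0448) tumour replicate 3 was the highest and tumour replicate 2 the lowest. Gpc3, a cell-surface proteoglycan often stained for in hepatocellular carcinoma, was at 4.76 and 4.50 in controls and at 4.53, 4.38 and 4.45 in tumours (-0.18, adjusted p = 0.726), and the fetal RNA-binding protein genes Lin28b, Igf2bp1 and Igf2bp3 had differences of -0.11, -0.17 and -0.01, none past the threshold. Apart from Igf2, the calls depended on single arrays. Without control replicate 2 the adjusted p of Afp was 0.248, of Lcn2 0.285, of Tspan8 0.33, of Prom1 0.37, and of Sox4 and Scd2 0.28. Without control replicate 1 that of Afp was 0.0874, of Tspan8 0.149, of Prom1 0.145, and of Sox4 and Scd2 0.212. Leaving out tumour replicate 1 gave 0.0741 for Tspan8, 0.0785 for Prom1, 0.0639 for Sox4 and 0.0535 for Scd2, and leaving out tumour replicate 3 gave 0.09 for Lcn2, 0.106 for Tspan8, 0.13 for Prom1 and 0.0953 for Sox4. Golm1 (3.05) and Aldoa completed the 9 rises. Averaging over probe sets gave Afp 2.84, which also passed, whereas Tspan8 (1.65, adjusted p = 0.0851), Sox4 (1.58, adjusted p = 0.132), and Scd2 (3.58) and Prom1 (both with adjusted p = 0.0548) did not.

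Other large rises named by rule lay outside that list. Ubd, a ubiquitin-like protein induced by inflammatory cytokines, was at 4.98 and 4.22 in controls and at 9.09, 11.05 and 8.07 in tumours (4.81 ± 0.78, adjusted p = 0.0176). Rragd, a Rag GTPase that links lysosomal nutrient sensing to mTORC1, was at 4.74 and 4.46 against 8.45, 9.23 and 9.56 (4.48 ± 0.64, adjusted p = 0.00955). Mfge8, a milk fat globule protein that bridges phagocytes and dying cells, was at 7.17 and 6.82 against 11.94, 9.43 and 10.63 (3.67, adjusted p = 0.018). In all 3 genes no tumour overlapped the controls, and a different tumour was the highest in each. Anxa2, an annexin of membrane repair, was at 8.32 and 8.08 against 10.88, 10.82 and 11.77 (2.96, adjusted p = 0.00359), Lgals1, the lectin galectin-1, at 8.41 and 8.61 against 11.91, 10.73 and 11.89 (3.0, adjusted p = 0.0127), and Anxa5 rose by 2.29. The Cdc42 effector gene Cdc42ep5 rose by 4.71 and Prelid2, of a family of mitochondrial lipid carriers, by 3.88. Without control replicate 2 the adjusted p of these 8 genes ran from 0.0743 (Anxa2) to 0.293 (Anxa5), so none passed. Without control replicate 1 the other 7 also failed, from 0.0746 (Rragd) to 0.17 (Anxa5). Without tumour replicate 3 Cdc42ep5 (0.0589), Mfge8 (0.0566), Prelid2 (0.0865) and Anxa5 (0.115) did not pass, nor did Prelid2 (0.052) and Anxa5 (0.0683) without tumour replicate 1. With the mean of probe sets Rragd was at 2.26 (adjusted p = 0.07), while Cdc42ep5 (2.33), Prelid2 (2.03) and Anxa2 (1.30) passed with smaller differences.

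Most published targets of miR-122 lay above the controls, and some passed the test. Of 36 measured, 12 rose, 0 fell and 24 did not pass (1.31% of all genes rose). In 26 all 3 tumours lay above both controls, against 13.9% of all genes. The median log2 difference was 1.18, against -0.04 over all genes, and it was alike in the 3 tumours, at 0.99, 0.98 and 1.19. Aldoa, the aldolase of glycolysis and a target classically used to follow the microRNA, was at 9.27 and 8.97 in controls and at 12.04, 11.08 and 12.88 in tumours (2.88 ± 0.49, 7.35-fold, adjusted p = 0.0197). Fundc2, a mitochondrial outer membrane protein, was at 6.35 and 6.40 against 8.19, 8.12 and 8.78 (1.99 ± 0.25, adjusted p = 0.00399), and Slc35a4, of the nucleotide sugar carrier family, rose by 1.65 ± 0.23 (adjusted p = 0.00955). Gpx7, a peroxidase of the endoplasmic reticulum, was at 6.20 and 5.09 against 8.80, 7.86 and 8.34 (2.69, adjusted p = 0.0428). Rell1, of the RELT family, was at 7.65 and 7.82 against 9.09, 10.46 and 10.02 (2.12, adjusted p = 0.0188). The cyclin gene Ccng1 rose by 1.54, Bckdk, a kinase that shuts off breakdown of branched-chain amino acids, by 1.30 (adjusted p = 0.00522), the citrate synthase gene Cs by 1.19 and the sheddase gene Adam10 by 1.0. Tmed3 (1.85), Ankrd13c (1.41) and Vamp3 (1.19) made up the 12. The pyruvate kinase gene Pkm (2.47, adjusted p = 0.145), Igf1r (0.15), Srf (-0.18), Cux1 (-0.10) and Prkra (-0.71, adjusted p = 0.0637) were not past the threshold.

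The number of listed targets called was 2 without control replicate 1, 0 without control replicate 2, 11 and 13 without tumour replicates 1 and 2, and 5 without tumour replicate 3, while the median of the list stayed between 0.98 and 1.19 over the 5 leave-outs. Without control replicate 2 the adjusted p was 0.0689 for Fundc2, 0.145 for Slc35a4, 0.0768 for Bckdk and 0.239 for Aldoa. With the mean of the probe sets Slc35a4 was at 0.79 and passed, and Fundc2 (1.20, adjusted p = 0.0581), Ccng1 (1.13, adjusted p = 0.11), Tmed3 (1.07), Ankrd13c (0.62) and Vamp3 (1.06) did not pass. A second list of 9 genes, named as targets by studies of these knockout mice and so no independent evidence of its direction, had 1 gene higher, Tgfb1, the gene of the main profibrotic cytokine, at 6.49 and 6.21 against 7.19, 7.89 and 7.85 (1.29, adjusted p = 0.0279). It did not pass without control replicate 1 (0.117), control replicate 2 (0.267) or tumour replicate 3 (0.0841), nor with the mean of its probe sets (0.6, adjusted p = 0.13).

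**Figure D3:**
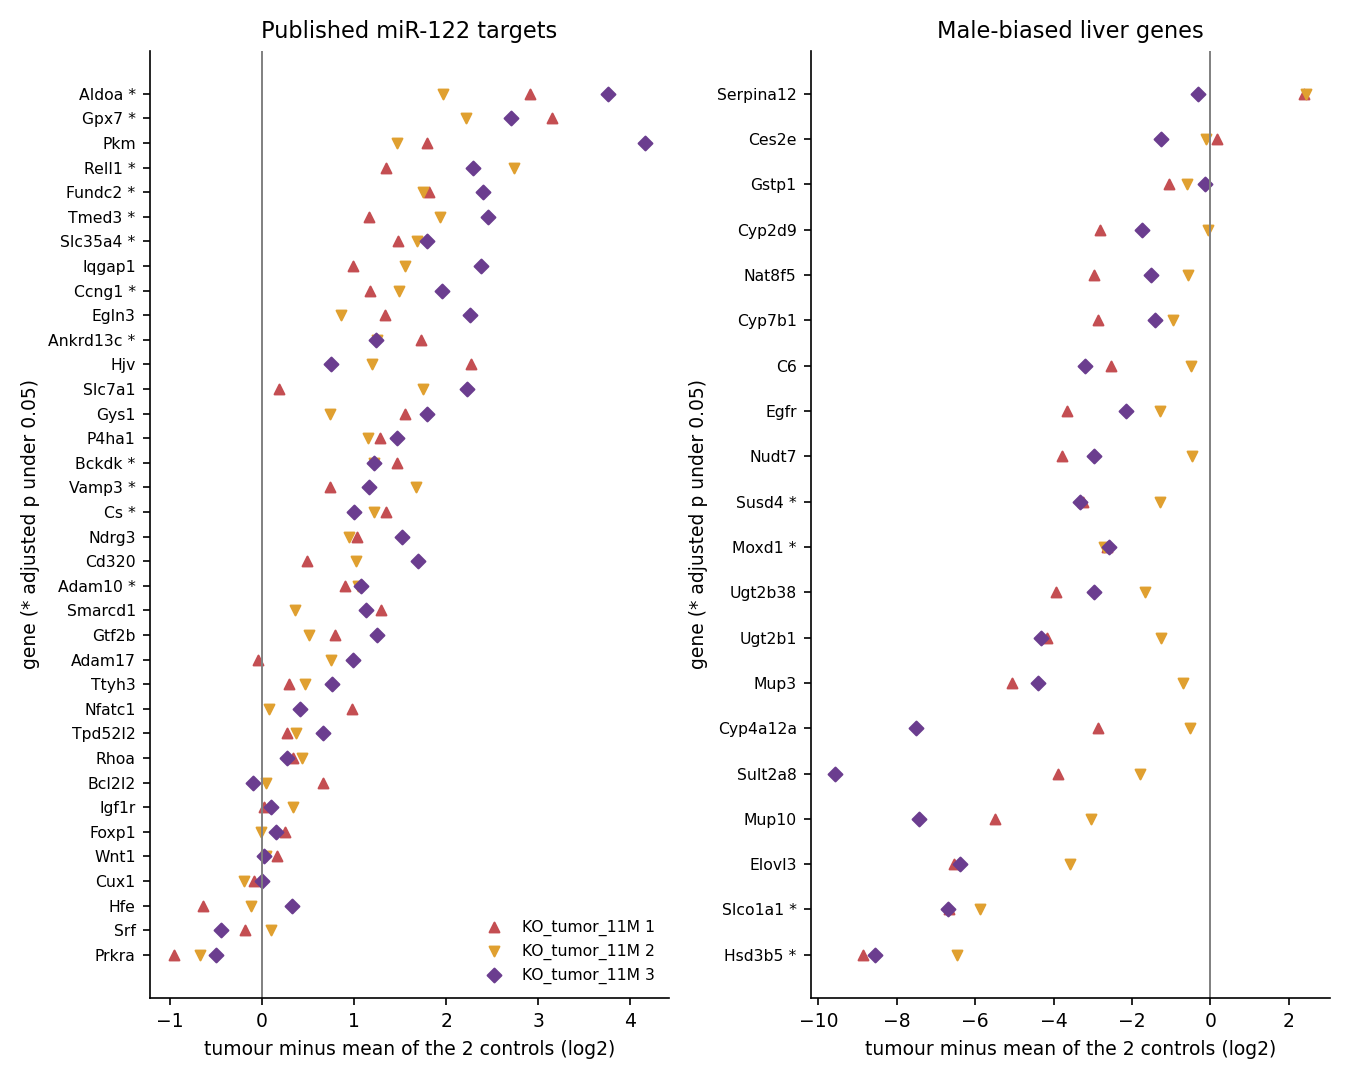
Difference of each tumour from the mean of the 2 controls (log2, x axis) for the 36 measured published miR-122 targets (left) and 20 measured genes expressed at higher levels in male liver (right), ordered by their mean difference; a star marks an adjusted p under 0.05. Most targets lie to the right of 0 in all 3 tumours. Most male-biased genes lie to the left, with tumour replicate 2 nearest to 0.

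Among liver genes with sex-biased expression, those higher in males lay mostly below the controls. Of 20 measured, 4 fell, 0 rose and 16 did not pass (0.61% of all genes were lower), and in 17 all 3 tumours lay below both controls, against 19.7% of all genes. Besides Hsd3b5 and Slco1a1, the calls were Susd4, a regulator of complement, at 8.79 and 8.91 against 5.60, 7.57 and 5.53 (-2.62, adjusted p = 0.0314), and the monooxygenase-like gene Moxd1 at 5.65 and 6.20 against 3.29, 3.21 and 3.34 (-2.65, adjusted p = 0.0471). Elovl3, a fatty acid elongase, was at 9.39 and 11.94 against 4.13, 7.09 and 4.27 (-5.50, adjusted p = 0.0653), and Mup10, of the major urinary proteins, at 10.41 and 12.03 against 5.73, 8.16 and 3.78 (-5.33, adjusted p = 0.0865). Both lay at least 4-fold below the lower control in every tumour without passing the test. They were singled out after their values were seen. Tumour replicate 2 kept more of this list: its median difference was -1.11, against -3.46 and -3.09 in replicates 1 and 3, and Mup3 was at 13.54 and 13.95 in controls and at 8.67, 13.05 and 9.33 in tumours. Of 17 genes higher in female liver, 2 were called higher in tumours, Prom1 and the lipase gene Lpl. None was called lower (1.31% of all genes were higher and 0.61% lower). The steroid hydroxylase gene Cyp17a1 was at 6.96 and 7.15 against 12.12, 8.22 and 11.61 (3.60, adjusted p = 0.138) and the sulfotransferase gene Sult2a2 at 3.46 and 3.13 against 10.39, 3.59 and 4.98. Both were highest in tumour replicate 1 and lowest of the tumours in replicate 2. The labels used here give no sex, and whether the groups were matched for it was not tested. Susd4 did not pass without control replicate 1 (0.16), control replicate 2 (0.255) or tumour replicate 3 (0.0861), and Moxd1 passed in none of the 5 leave-outs (0.0579 to 0.325).

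Of genes that define the adult hepatocyte none passed the threshold, and most lay below the controls in tumour replicate 3. Alb, albumin, was at 14.65 and 14.64 in controls and at 14.75, 14.70 and 14.61 in tumours (0.04, adjusted p = 0.9), and Hnf4a, the nuclear receptor that maintains hepatocyte identity, at 11.87 and 12.14 against 11.82, 12.08 and 11.47 (-0.22, adjusted p = 0.653). Ttr, transthyretin, had a difference of -0.03, and Apoa1, of high-density lipoprotein, was at 14.49 and 14.37 against 14.45, 14.45 and 12.87 (-0.51, adjusted p = 0.573), low in tumour replicate 3 only. Levels of Alb, Ttr and Apoa1 lie near the top of the array's range, where a change may not be seen. Of 28 hepatocyte identity genes limma called 0 higher and 0 lower (2 at an unadjusted p under 0.05), 21 had a difference below 0 and the median difference was -0.30. In replicates 1, 2 and 3 respectively 16, 9 and 23 of them lay below both controls (42.8%, 43.5% and 41.7% of all genes did), and the mean level of the list was 11.88 and 11.90 in controls against 11.72, 11.79 and 11.04 in tumours. At 14 months 6 of the 28 were called lower (6.88% of all genes were). In bulk samples, fewer cells of a type and less RNA per cell cannot be told apart.

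Single genes of hepatocyte functions fell. In complement and coagulation 1 of 32 genes was lower and 22 lay below both controls in all 3 tumours (0.61% and 19.7% of all genes). The gene that passed was C9, the pore-forming component of complement, at 12.82 and 13.02 against 12.12, 11.91 and 11.68 (-1.02, adjusted p = 0.0169). Of 31 genes of the urea cycle and amino acid breakdown 0 were higher, 2 were lower, Kynu and Kmo, and 29 did not pass. Here and for the lists that follow, the shares over all genes were 1.31% higher and 0.61% lower. Kynu, kynureninase, was at 10.36 and 10.79 against 9.13, 9.40 and 9.60 (-1.20, adjusted p = 0.0176), Kmo fell by 0.71 on the log2 scale (adjusted p = 0.046) and Ido2, a dioxygenase gene outside that list that was named for the size of its change, was at 8.16 and 8.22 against 5.26, 6.63 and 4.35 (-2.77, adjusted p = 0.024). Of 33 cytochrome P450 genes 0 were higher and 1 lower, Cyp2u1, a fatty acid hydroxylase, at 7.66 and 8.44 against 5.74, 5.90 and 5.06 (-2.49, adjusted p = 0.00399). Of 29 pericentral genes 2 were lower: Rnf43, a ubiquitin ligase that removes WNT receptors, at 6.92 and 7.0 against 4.88, 5.05 and 3.88 (-2.36, adjusted p = 0.024), and Axin2 of the WNT feedback loop (-0.69, adjusted p = 0.0481). Both are read as WNT targets, whereas Glul, another pericentral WNT target, was at 11.62 and 11.52 against 10.72, 11.91 and 9.09 and not past the threshold. In a list of WNT, Hippo and Notch readouts 1 of 23 genes was lower and 0 higher. Its median difference was 0.02, with 13 differences above 0 and 10 below. Enho, which encodes the secreted peptide adropin, was at 9.31 and 9.24 against 5.45, 7.38 and 5.45 (-3.18, adjusted p = 0.014), Cnmd, the angiogenesis inhibitor chondromodulin, at 7.30 and 7.87 against 3.96, 4.53 and 3.44 (-3.61, adjusted p = 0.0111), and Igfals, which stabilises circulating IGF complexes, fell by 0.98. Fmn2, an actin nucleator, fell by 3.36 (adjusted p = 0.00446), and Sdr9c7 (-3.26), Nxpe2 (-2.95) and Sntg2 (-2.57) also fell. Of these 14 falls none passed without control replicate 2, where the adjusted p ran from 0.0772 (Fmn2 and Cyp2u1) to 0.369 (Axin2). Without control replicate 1 Fmn2, Cyp2u1 and Kynu still passed, and the others ran from 0.0663 (Cnmd and Sdr9c7) to 0.273 (Nxpe2). Without tumour replicate 3 C9 (0.054), Rnf43 (0.0589), Sdr9c7 (0.0604), Sntg2 (0.09), Igfals (0.101), Axin2 (0.122), Nxpe2 (0.129) and Kmo (0.135) did not pass, and without tumour replicate 1 the last 4 did not either (0.0629 to 0.079). The mean of probe sets gave -0.73 for Kynu (adjusted p = 0.0595), -0.39 for Axin2 (0.107) and -1.67 for Nxpe2 (0.0537), none of which passed, and smaller differences past the threshold for Fmn2 (-2.02), Enho (-1.81) and Cyp2u1 (-1.66).

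The 3 tumours differed from each other more than the controls did. Between pairs of tumours 1737 to 2472 genes were over 2-fold apart, against 442 between the 2 controls (2.43%). Tumour replicate 1 had 1006 genes at least 2-fold above the control mean (5.53%) and 658 below it (3.62%), replicate 2 had 968 (5.32%) and 300 (1.65%), and replicate 3 had 1729 (9.5%) and 1091 (6.0%). At least 4-fold above the higher control stood 491 genes in 1 tumour only, 134 in 2 tumours and 28 in all 3. The corresponding counts at least 4-fold below the lower control were 262, 70 and 11. Replicate 3 alone made up 319 of the 491 and 223 of the 262. Each description of a single tumour below is 1 array with no replicate, so its values are given without a test.

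Among the 3 tumours of 11 months, replicate 1 was set apart by genes of fatty acid oxidation and lipid storage. The mean level of the oxidation list was 11.25 in replicate 1 and 9.42 to 10.58 in the tumours of 14 months. That of the lipid uptake and droplet list was 10.28 against 8.82 to 9.94. Of 25 genes of fatty acid oxidation and ketone formation, 20 were above both controls in replicate 1, 3 in replicate 2 and 4 in replicate 3. Of all genes 33.8%, 30.2% and 37.6% were. From the 25 limma called 0 in either direction (2 at an unadjusted p under 0.05). Acot3, a peroxisomal thioesterase, was at 6.70 and 5.97 in controls and at 11.58, 7.47 and 5.96 in tumours. Ehhadh, the bifunctional enzyme of peroxisomal oxidation, was at 10.93 and 11.34 against 13.62, 10.64 and 9.92. Acot1, a cytosolic thioesterase of the same family as Acot3, was at 5.95 and 7.22 against 10.93, 5.24 and 4.61. In all 3 genes replicate 1 was the highest array by far. Fgf21, a fasting hormone of the liver, was at 6.02 and 5.24 against 10.36, 6.06 and 6.81, Pdk4, which blocks pyruvate oxidation, at 5.18 and 6.52 against 10.40, 6.28 and 5.06, and the fatty acid hydroxylase gene Cyp4a14 at 6.86 and 6.87 against 12.01, 8.08 and 4.40. Of 27 genes for lipid uptake and droplets, 25 lay above both controls in replicate 1, 9 in replicate 2 and 15 in replicate 3 (33.8%, 30.2% and 37.6% of all genes). The droplet proteins Cidec (3.85 and 3.69 against 10.19, 5.51 and 6.02) and Cidea (4.97 and 4.27 against 10.21, 4.54 and 6.34) followed the same order. The only call of that list was Lpl, lipoprotein lipase, at 9.26 and 8.33 against 11.81, 10.81 and 12.12 (2.79, adjusted p = 0.0191; 0.0664 without control replicate 1, 0.245 without control replicate 2 and 0.0589 without tumour replicate 3). Mogat2, of triglyceride synthesis, was at 5.55 and 4.85 against 10.71, 8.80 and 7.75 (3.89, adjusted p = 0.0602). Cholesterol synthesis ran the other way in this tumour: all 20 measured genes were below both controls in replicate 1, 5 in replicate 2 and 19 in replicate 3 (42.8%, 43.5% and 41.7% of all genes were), and limma called 0 (4 at an unadjusted p under 0.05). Idi1, which isomerises isopentenyl diphosphate, was at 12.27 and 11.74 against 9.05, 12.40 and 7.86, and Hmgcs1, the synthase at the entry of the mevalonate pathway, at 12.79 and 12.33 against 10.42, 12.84 and 9.21, so replicate 2 stood with the controls in both.

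**Figure D4:**
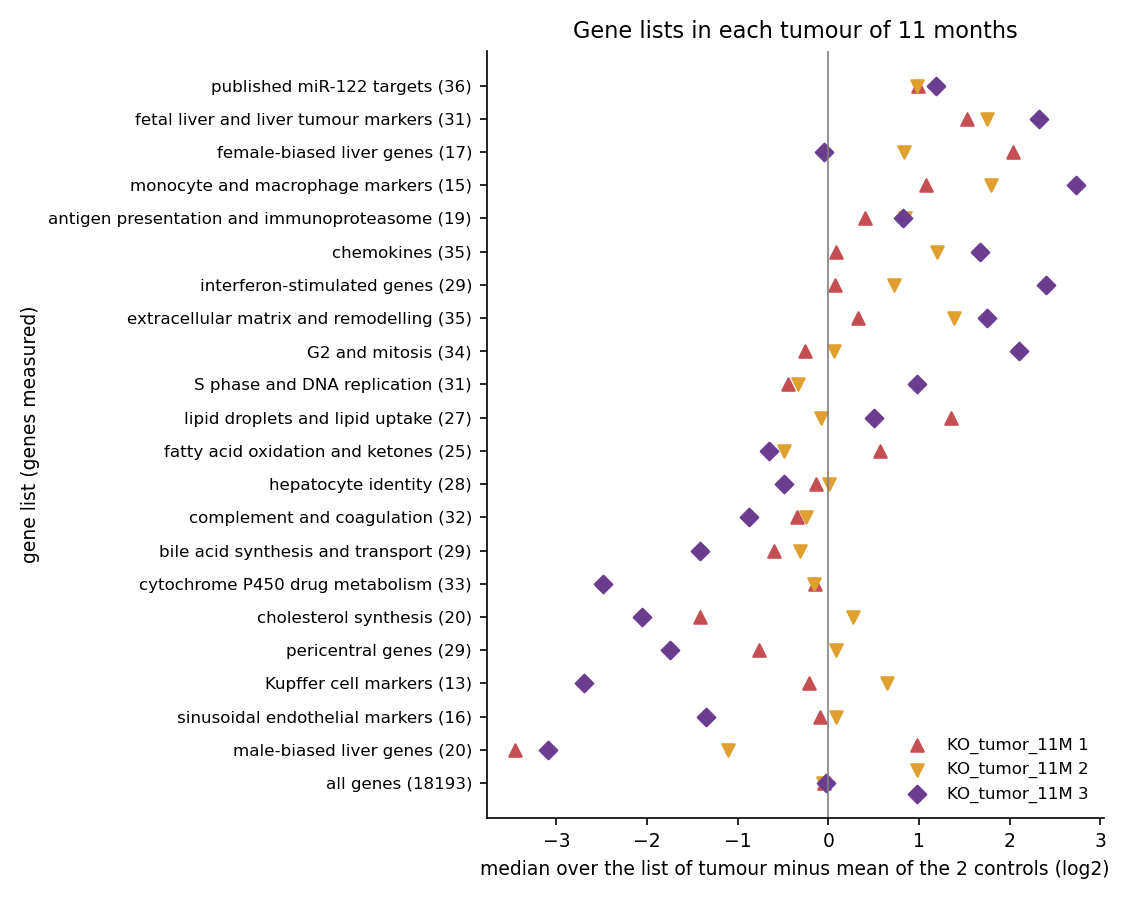
Median over each gene list (y axis, with the number of genes measured) of the difference between a tumour and the mean of the 2 controls (log2, x axis), with 1 symbol per tumour of 11 months. The 3 symbols nearly coincide for published miR-122 targets (0.98 to 1.19), and they spread widely for P450 genes, where replicates 1 and 2 are at -0.15 and -0.16 and replicate 3 at -2.49.

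Of the 3 tumours of 11 months, replicate 3 had the highest levels of G2 and mitosis genes and the lowest mean level of P450 genes. Its mean level of G2 and mitosis genes was 7.12, within the 5.95 to 7.80 of the tumours of 14 months. That of P450 genes was 7.24 against 7.82 to 11.0, and that of interferon-stimulated genes 9.69 against 7.95 to 9.80. Its r was 0.9864 with KO_tumor_14M replicate 3, and 0.9511 and 0.9551 with tumour replicates 1 and 2 of 11 months. Of 34 genes of G2 and mitosis 33 were above both controls in replicate 3, 1 in replicate 1 and 5 in replicate 2. Of all genes 37.6%, 33.8% and 30.2% were. In the same order the list medians were 2.10, -0.26 and 0.06. limma called 0 of the 34 (0 at an unadjusted p under 0.05). Mki67, the proliferation marker, was at 5.56 and 4.69 in controls and at 4.61, 6.00 and 8.50 in tumours (1.25, adjusted p = 0.561), and the mitotic kinase gene Cdk1 at 8.08 and 5.95 against 7.02, 7.27 and 10.20. Of the P450 genes 30 of 33 were below both controls in replicate 3 (41.7% of all genes were). The list's mean level was 10.41 and 10.60 in controls and 9.93, 10.62 and 7.24 in tumours. Bile acid genes also had their lowest mean level in replicate 3 (9.62, 9.60 and 8.41 in replicates 1, 2 and 3). So did pericentral genes (8.50, 9.82 and 7.14) and complement and coagulation genes (11.45, 11.80 and 10.50). Some lists did not follow this order. The mean level of the urea cycle and amino acid list was lowest in replicate 1 (11.23, 11.60 and 11.42). That of periportal genes was lowest in replicate 2 (11.57, 11.02 and 11.40). Cyp2e1, an ethanol-oxidising P450 of pericentral hepatocytes, was at 13.98 and 14.17 against 13.40, 14.10 and 6.91, and Cyp3a11, of drug clearance, at 13.91 and 14.08 against 14.21, 14.11 and 10.31. Replicate 3 alone was far below the controls for these, whereas Cyp1a2, at 12.66 and 12.50 against 7.84, 13.13 and 5.30, was low in replicates 1 and 3. Interferon-stimulated genes were above both controls for 13, 20 and 28 of 29 genes in replicates 1, 2 and 3 (33.8%, 30.2% and 37.6% of all genes), with 0 called by limma (6 at an unadjusted p under 0.05). Ifit1, which binds viral RNA caps, was at 6.25 and 6.22 against 7.04, 8.08 and 10.36, and the antiviral GTPase gene Mx1 at 4.09 and 3.62 against 3.99, 4.63 and 8.05.

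Markers of monocytes and macrophages stood out in every tumour. All 15 measured lay above both controls in all 3 tumours, against 13.9% of all genes. Of the 15, 4 were called higher and 0 lower, against 1.31% and 0.61% of all genes. The mean level of the list was 6.49 and 6.29 in controls and 7.62, 8.31 and 9.20 in tumours. Cd14, the co-receptor for lipopolysaccharide, was at 8.17 and 6.14 against 11.12, 10.35 and 13.46 (4.49 ± 0.91, adjusted p = 0.0365). Ms4a7 was at 5.48 and 5.09 against 6.99, 9.23 and 10.13 (3.50, adjusted p = 0.0487), Ccr2, the chemokine receptor of recruited monocytes, at 5.31 and 5.22 against 7.03, 8.69 and 8.72 (2.88, adjusted p = 0.0314), and the Fc receptor gene Fcgr1 at 5.61 and 5.50 against 6.99, 7.34 and 8.57 (2.08, adjusted p = 0.0341). Replicate 1 was the lowest tumour in the last 3. The other receptor called in the chemokine list was Ccr1 (1.92, adjusted p = 0.0451). In antigen presentation, 4 of 19 genes were higher (1.31% of all genes were), Ubd and the class II genes H2-Ab1, H2-Eb1 and H2-Aa. H2-Ab1 was at 7.99 and 8.61 against 9.48, 11.13 and 10.71 (2.14, adjusted p = 0.0279), while the class I genes H2-K1 and H2-D1 had differences of 0.01 and 0.46 that did not pass. The lysosomal protease gene Ctss, used in class II loading, rose by 1.85 (adjusted p = 0.0321). Of 11 neutrophil markers 2 rose, the calprotectin subunits S100a9 (5.92 and 4.97 against 8.14, 8.92 and 10.57, 3.76, adjusted p = 0.0132) and S100a8 (5.93 and 5.13 against 8.01, 8.93 and 10.36, 3.58, adjusted p = 0.018). Both genes are also expressed by monocytes. Of the 11 markers 9 had a difference above 0 and 7 lay above both controls in all 3 tumours (13.9% of all genes did), with a median difference of 0.45. Of the granule genes, Mpo, Ltf, Camp and Ngp had differences of 0.13, 0.01, -0.09 and -0.13.

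Without control replicate 2 none of these myeloid and class II calls passed, with adjusted p from 0.158 (H2-Ab1) to 0.325 (Ccr1), and without control replicate 1 none did either, from 0.0608 (S100a9) to 0.259 (H2-Aa). Without tumour replicate 3 Cd14 (0.0811), Ms4a7 (0.126), Ccr2 (0.0896), Fcgr1 and Ccr1 (both 0.0579), Ctss (0.0851), H2-Ab1 (0.083), H2-Eb1 (0.122) and H2-Aa (0.119) were lost, and without tumour replicate 2 Ms4a7 (0.0693), H2-Eb1 (0.0583) and H2-Aa (0.0574). With the mean of probe sets Ms4a7 (2.04, adjusted p = 0.117), Ccr2 (1.53, adjusted p = 0.0558), Ccr1 (1.11, adjusted p = 0.0705) and Fcgr1 (1.38, adjusted p = 0.0759) did not pass.

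Markers of the resident macrophages of the liver, the Kupffer cells, were split. Of 13 measured, 1 was higher, the complement gene C1qb (9.39 and 9.09 against 10.10, 11.00 and 11.34, 1.57, adjusted p = 0.0366), and 1 lower, the haemoglobin scavenger receptor gene Cd163 (7.96 and 7.51 against 5.21, 4.92 and 2.43, -3.55, adjusted p = 0.0351). Over all genes 1.31% were higher and 0.61% lower. Neither passed without control replicate 1 (0.151 and 0.205) or 2 (0.287 and 0.245), and C1qb also failed without tumour replicate 3 (0.0972). Clec4f, a lectin of these cells in the mouse, was at 9.49 and 9.53 against 8.74, 9.53 and 5.65, and Vsig4, a complement receptor, at 9.21 and 9.05 against 9.11, 10.07 and 5.83. Timd4, a receptor for dying cells, was at 6.59 and 6.42 against 3.77, 7.16 and 3.81. Replicate 2 stood at or above the controls for these 3 genes and replicate 3 below them. Over the 13 markers, 4, 10 and 4 lay above both controls in replicates 1, 2 and 3 (33.8%, 30.2% and 37.6% of all genes did). Below both controls lay 7, 3 and 9 (42.8%, 43.5% and 41.7% of all genes did). Sinusoidal endothelial markers had 0 calls of 16 (limma, 2 at an unadjusted p under 0.05) and mean levels of 7.81 and 7.94 in controls and 7.77, 8.11 and 6.50 in tumours.

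Genes of the extracellular matrix followed replicates 2 and 3. Of 35 measured, 15, 34 and 32 lay above both controls in replicates 1, 2 and 3 (33.8%, 30.2% and 37.6% of all genes did), and replicate 1 was near that share. Of the 35, 1 was called, Col4a1 of the basement membrane, at 7.81 and 7.69 against 9.50, 10.21 and 11.28 (2.58, adjusted p = 0.0428; 0.193 without control replicate 1, 0.28 without control replicate 2, 0.105 without tumour replicate 3 and 0.0541 with the mean of its probe sets). The fibrillar collagen genes Col1a1 (5.94 and 4.92 against 6.59, 8.26 and 11.00, adjusted p = 0.21) and Col3a1 (9.06 and 7.86 against 9.14, 11.10 and 12.66, adjusted p = 0.239) were higher in each tumour than in either control without passing the test. Stellate cell and myofibroblast markers had 0 calls of 18 (limma, 4 at an unadjusted p under 0.05), with mean levels of 8.01 and 7.35 in controls and 7.51, 8.68 and 8.57 in tumours. By limma, markers of T and natural killer cells, B and plasma cells, red blood cells and exocrine pancreas had 0 calls each (5 of 18, 1 of 11, 0 of 6 and 3 of 9 at an unadjusted p under 0.05), and cholangiocyte markers (9) had 1, Prom1. The share of each cell type in these samples was not measured, and its part in the differences above was not tested.

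**Figure D5:**
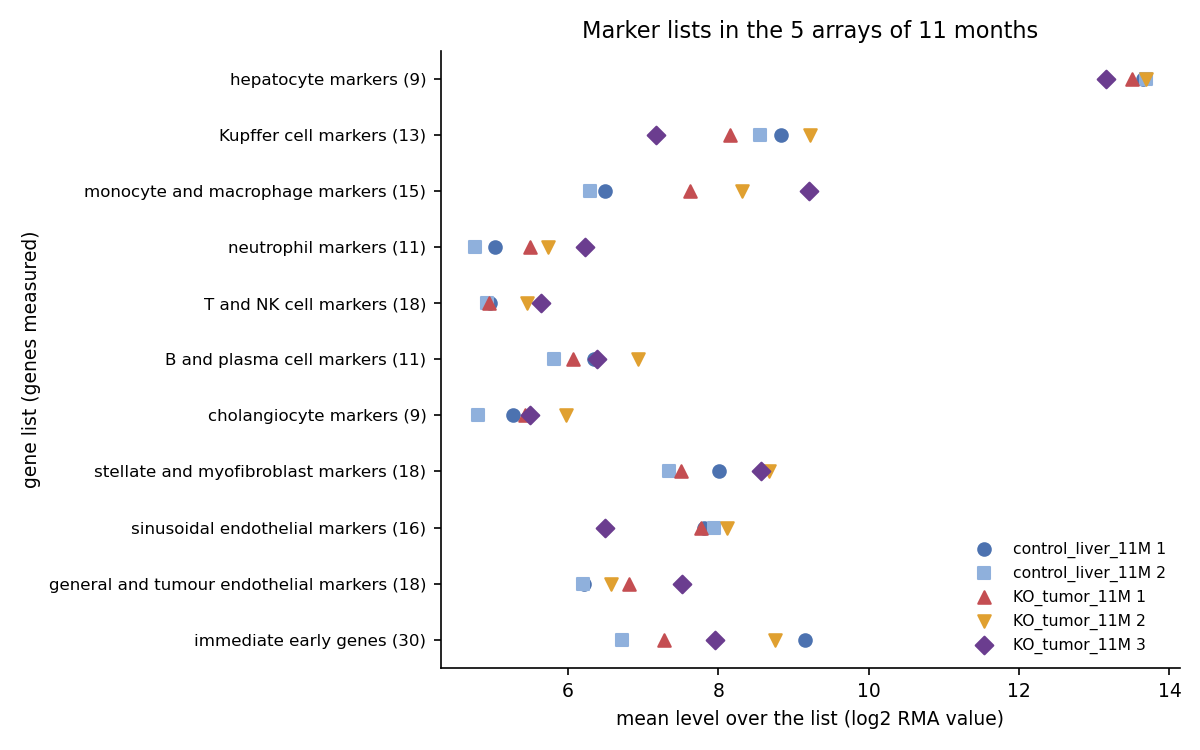
Mean level over each marker list (log2 RMA value, x axis) in the 5 arrays of 11 months, with the number of genes measured beside each list (y axis). Monocyte and macrophage markers lie at 6.29 and 6.49 in the controls and from 7.62 to 9.20 in the tumours; levels may be compared along a row, not between rows.

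The arrays of 14 months used their own controls, but both comparisons came from the same limma fit. The estimate of a gene's spread was shared between the ages, so the overlap of calls is not independent. At 14 months 2775 genes passed (15.3%), 1523 higher (8.37%) and 1252 lower (6.88%), with 5 tumours and 3 controls. Of the 349 genes called at 11 months, 308 were called at 14 months in the same direction, which is 88.3% of the 11-month calls and 11.1% of the 14-month calls. Without control_liver_14M replicate 3 the shared genes were 253 (72.5% of the 349 and 20.3% of 1246), and without both such controls 31 of 35 (88.6%, and 3.55% of 874). A test of the difference between the ages called 0 genes (limma, smallest adjusted p = 0.999), with 544 at an unadjusted p under 0.05 (2.99%). At 14 months 24 of 36 miR-122 targets, 17 of 31 fetal and tumour genes and 11 of 15 monocyte and macrophage markers were higher, and 14 of 20 male-biased genes lower. Mki67, not past the threshold at 11 months, had a difference of 2.89 at 14 months (adjusted p = 0.0302), and the difference between the ages was not past the threshold. Tmem267 had the contrast in the other sense: it was at 5.84 and 6.13 against 3.56, 3.85 and 3.60 at 11 months (-2.31, adjusted p = 0.0182; 0.103 without control replicate 1, 0.239 without control replicate 2 and 0.0579 without tumour replicate 3) and had a difference of -0.17 at 14 months, -2.14 between the ages (adjusted p = 0.999).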

How the data were processed

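Gene expression was measured on Affymetrix arrays in 13 samples, of which the 5 of 11 months were compared. The authors deposited log2 levels per probe set, made by RMA in Partek Genomic Suite, per the submitters' processing notes (versions not given in the sources used here). Whether all arrays were processed in 1 run is not stated. RMA compresses large differences, and brightest probe sets approach saturation. The table held 45101 probe sets, 64 of them array controls. 34945 named 1 gene, 932 several and 9160 none (platform annotation; 34741 matched RefSeq by gene ID). Each of 18193 genes took the probe set with the highest mean over all arrays, 9010 having several.

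Groups came from the source labels. limma 3.58.1 (R 4.3.3; lmFit and eBayes) was fitted on 4 groups of 13 arrays with 9 residual and 2.314 prior degrees of freedom, and adjusted by Benjamini-Hochberg (threshold 0.05). Fold changes are tumour minus control. In simulated data with these group sizes, shifts of 0.5, 1, 1.5 and 2 (50 genes each) were found in 8%, 46%, 70% and 78% of cases. Among 107 calls 6 were false. The simulation used independent normal noise with the same spread in every array of a gene. The real tumours differed from each other more than the controls did, so these rates may not hold for them. Tables and figures used Python 3.11.15, pandas 2.3.3, numpy 2.4.6, scipy 1.17.1 and matplotlib 3.10.9. The comparison and gene lists were chosen with earlier results of these data known. Named genes were the 15 largest called changes in each direction, up to 4 called genes per list, the 3 smallest p-values of the difference between ages, and Alb, Hnf4a, Igf2, Afp, Gpc3, Mki67, Ttr and Apoa1. Other list members are given with their values. Alternatives were other probe set rules, normalisations, variance settings, thresholds and leaving out arrays.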

Additional observations from a re-analysis of the deposited data

Results flagged for a closer look

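Vac14, a scaffold of the enzyme that makes the lipid PI(3,5)P2, lay below the controls in every tumour at 11 months and above them in every tumour at 14 months. At 11 months it was at 6.26 and 6.20 in controls and at 5.79, 5.78 and 5.77 in tumours (-0.45, limma adjusted p = 0.0392), and at 14 months its difference was 0.17 (adjusted p = 0.145), with controls from 5.83 to 5.89 and tumours from 5.98 to 6.10. The controls of 14 months thus lay nearer to the tumours than to the controls of 11 months. The difference between the ages was -0.62 (adjusted p = 0.999). The transcript 1810034E14Rik behaved likewise, with a difference of -0.51 at 11 months (adjusted p = 0.129) and -0.87 between the ages (adjusted p = 0.999). Without control replicate 1, control replicate 2, tumour replicate 1 or tumour replicate 3 of 11 months Vac14 did not pass (0.212, 0.245, 0.0501 and 0.109).

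Probe sets outside the gene comparison also carried differences: of 10092 that name no gene or several, 49 passed at 11 months, 31 higher and 18 lower in tumours. That is 0.486%, against 1.03% (464) of all 45037 probe sets tested.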

How the results depend on the processing

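At 11 months 349 genes passed. Leaving out 1 array of 11 months gave 21 to 731, and 1 of 14 months 165 to 402 (171, 165 and 190 without control_liver_14M replicates 1, 2 and 3, 220 and 204 without KO_tumor_14M replicates 1 and 2; chosen after seeing the data, apart from control_liver_14M replicate 3). The 5 arrays alone gave 0, leaving out both nearly identical controls 35, leaving out tumour replicates 1 and 2 together 1236, and an adjusted p under 0.01 42. Counts within 1.5 times came from the mean of probe sets (263), all probe sets (464), repeated quantile normalisation (332), a median shift (353), a trended robust fit (288), array weights (472), genes above the median level (325) and at least 2-fold (267). The share of higher genes was 238 of 349, 201 and 131 after quantile normalisation, 248 and 77 above the median level, 433 and 106 without tumour replicate 1, and 12 and 9 without control replicate 2. The difference between ages gave 0 genes, but 1 without control_liver_11M replicate 1 and 3 without tumour replicates 1 and 2 together. Over 78 single genes followed, 1285 alternative values kept direction and side of the threshold, 483 lost the call, 2 gained it and 4 changed sign: Alb (-0.04 without tumour replicates 1 and 2 together), Ttr (0.02 without control replicate 2 and 0.03 without tumour replicate 3, from -0.07 to 0.03 over all single leave-outs) and Apoa1 (0.02 without tumour replicate 3, from -0.77). Of 58 named genes past the threshold 0 changed sign. The cause of these shifts was not tested. No paired analysis was possible because the labels give no number that ties a tumour to a control. The 2 controls, the single platform and the number of arrays limit the precision.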

Other observations

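The 2 controls of 11 months differed from each other in immediate early genes, which are induced within minutes of a stimulus, more than in any other list used. Of 30 measured, 21 were over 2-fold apart between the controls, with a median of 2.29 higher in replicate 1, and limma called 0 between tumours and controls (2 at an unadjusted p under 0.05). Fos was at 12.68 and 6.91 in controls and at 6.36, 8.83 and 8.67 in tumours, Egr1 at 13.23 and 8.95 against 8.60, 12.62 and 8.48, Jun at 12.34 and 7.80 against 8.75, 9.45 and 8.94, and Atf3 at 11.06 and 5.89 against 7.29, 10.70 and 8.51. These genes were picked after their values were seen. The mean level of the list was 9.15 and 6.72 in controls and 7.28, 8.75 and 7.95 in tumours, so the controls spanned the tumours.

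Imprinted growth genes held 1 call of 22, Igf2, and 11 of them lay above both controls in all 3 tumours, against 1.31% called higher and 13.9% above in this way over all genes. The noncoding RNAs Meg3 and Rian of the Dlk1-Dio3 cluster, not among the genes named by rule, had higher levels in each tumour of 11 months without passing the test. Meg3 was at 8.61 and 8.39 against 10.93, 12.41 and 11.23 (3.03, limma adjusted p = 0.186), and Rian at 4.25 and 4.55 against 6.87, 6.83 and 8.05 (2.85, adjusted p = 0.108). With the mean of probe sets they were at 2.24 and 1.72. At 14 months their differences were 1.27 (limma adjusted p = 0.318) and 0.72 (adjusted p = 0.457). The lowest tumours of 14 months, at 6.55 and 3.91, lay below the lowest controls, at 7.79 and 4.16. Dlk1 of the same cluster was at 5.26 and 5.15 against 5.19, 5.12 and 6.59 at 11 months (0.43, adjusted p = 0.71). Oxidative phosphorylation held 0 calls of 31 (limma, 4 at an unadjusted p under 0.05). In tumour replicate 2 all 31 lay below both controls (43.5% of all genes did), against 23 in replicate 1 and 11 in replicate 3. The list's median differences were small, at -0.36, -0.40 and 0.11. Sdha, of complex II, was at 11.64 and 11.92 against 10.76, 11.36 and 11.53.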
